A study of Homo sapiens with 8 samples.

Results

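The cadherin superfamily was examined in D283 MED cells before and after induction of the MYC inhibitor OMOMYC. Members were taken by gene symbol as the protein-coding cadherins (CDH), cadherin-related genes (CDHR), desmocollins and desmogleins (DSC, DSG), non-clustered protocadherins (PCDH), FAT and Dachsous cadherins (FAT, DCHS), CELSR genes and calsyntenins (CLSTN), which gave 59 of the 60668 genes in the files. The clustered protocadherins, whose symbols carry a letter for their cluster, do not match this rule. D283 MED is a long-established medulloblastoma line with high MYC. All 8 libraries came from D283-OMO cells, which were transduced with a lentivirus carrying a doxycycline-inducible FLAG-tagged OMOMYC and selected with hygromycin B, so that the control cells carry the transgene too. The 4 OMO libraries were made from untreated cells and the 4 OMO+DOX libraries from cells given doxycycline (DOX) for 72 h, each from a separate biological replicate. Cells without the transgene that received DOX were not analysed here, so effects of DOX and of OMOMYC cannot be told apart in these libraries.

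Cadherins are membrane proteins whose extracellular repeats bind calcium and, in most subfamilies, the same or a related cadherin on the next cell. Classical cadherins hold the cytoskeleton through catenins, desmosomal cadherins hold intermediate filaments, and protocadherins, FAT, Dachsous and CELSR cadherins act more in recognition, cell polarity and axon or dendrite patterning than in firm adhesion. In the developing cerebellum CDH2 (N-cadherin) is the main classical cadherin of neural progenitors and neurons. MYC binds, with MAX, the E-box CACGTG, and OMOMYC is a MYC-derived basic helix-loop-helix leucine zipper that displaces it.

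Polyadenylated RNA was sequenced in pairs and counted per gene, with 38390696 to 54020506 expected counts in a library. Levels are counts per 1000000 (CPM) of the library's effective size, which was 40128652 to 51675517. This size is the library's counts in the tested genes times a factor that evens out RNA composition between libraries (TMM). A gene at or under 3 counts is called at the floor in a library, and 3 counts came to 0.0581 to 0.0748 CPM. MYC itself, whose counts per gene may include reads of the OMOMYC transgene, was measured at 880 to 1050 CPM in OMO and 1050 to 1180 CPM in OMO+DOX. The summed CPM of 12 medulloblastoma Group 3/4 markers, MYC included, was 2710 to 2810 in OMO and 1690 to 1820 in OMO+DOX. OTX2 (1050 against 510 CPM), CRX, NRL and GABRA5 (58.9 against 17.5 CPM) were present in every library and lower with DOX. So were IMPG2 (473 against 58.7 CPM) and NEUROD1 (94.4 against 20.2 CPM). UNC5D (0.838 against 9.69 CPM) and EOMES (0.264 against 0.777 CPM) went the other way, while LMX1A, BARHL1 and KCNA1 were at the floor in all 8 libraries. Of the 4 untreated libraries, replicate 3 stood apart in long genes: the deviation of each gene from the mean of the other 3 fell with exon length (Spearman's rho -0.58 across 15111 genes, which are not independent replicates), and all 14 tested members with over 10 kb of exon were lower there, by a median of 0.24 on the log2 scale. A trend with length was present in the other libraries too. The same rho was 0.45, 0.24 and 0.38 in OMO replicates 1, 2 and 4, and 0.32, 0.26, -0.24 and -0.38 in OMO+DOX replicates 1 to 4. In these OMO+DOX libraries the 14 long members deviated by medians of 0.1, -0.02, -0.01 and -0.08 on the log2 scale. In bulk RNA, fewer cells that express a gene and less RNA per cell cannot be told apart.

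Of the 59 members, 35 passed the filter of more than 1 CPM in at least 4 of 8 libraries and were tested, and 24 did not. The filter used CPM of the plain library totals, without TMM. A printed, TMM-scaled CPM can therefore lie under 1 in a library that passed, as for CDH15 in OMO+DOX (0.972 to 1.36 CPM). Among the 35, 20 rose with DOX, 11 fell and 4 did not pass the test (edgeR's quasi-likelihood test, Benjamini-Hochberg adjusted p under 0.05 over all 15222 genes tested). Over all genes tested, 38.5% rose and 38.1% fell by the same rule, so a call at this threshold was common in the whole transcriptome. With the stricter rule of FDR under 0.001 and an absolute log2 fold change above 2, here called differentially expressed, 10 members were higher and 5 lower, against 4.38% and 2.75% of all genes tested. The 2 groups of 4 libraries did not overlap for 31 of the 35 tested members, against 71.7% of all genes. The median absolute log2 fold change was 1.35 over the tested members and 0.43 over all genes tested. Tested members had a median of 8232 exon bases, against 3562 over all genes tested, and length was not adjusted for. These counts and the median change lean on the filter, because 8 of the tested members passed it only through OMO+DOX libraries and 2 only through OMO libraries. The 8 were CDH5, CDH6, CDH8, CDH10, CDH12, CDH15, PCDH17 and PCDH19, and the 2 were CDH22 and CDH23. For these genes the adjusted p-values of the edgeR test, here and below, are not independent of the filter. When more than 4 libraries had to exceed 1 CPM, 25 members were tested, and 4 (16.0%) were differentially expressed with higher and 3 (12%) with lower levels, against 2.19% and 1.74% of 14301 genes.

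**Figure D1:**
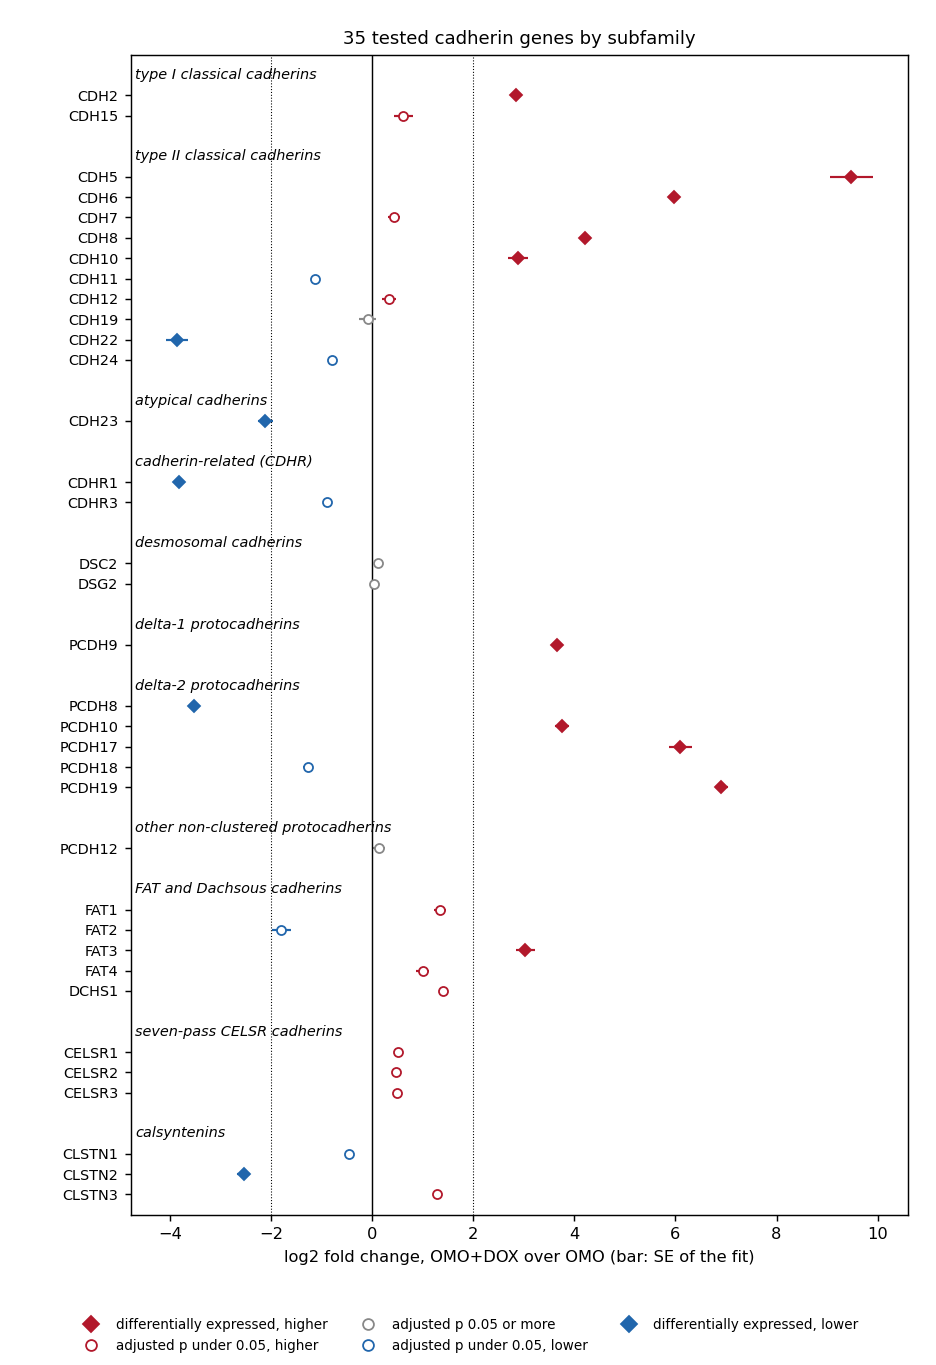
Log2 fold change of each of the 35 tested members (x axis, OMO+DOX over OMO, with the standard error of the fit), grouped by subfamily. The 10 filled red and 5 filled blue diamonds mark the differentially expressed members, which lie in the classical, protocadherin, FAT, cadherin-related, atypical and calsyntenin groups, and the value of CDH5 depends on the prior count because it had no count in OMO.

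The start regions of 4 members with large changes are shown first, from among those with a RefSeq window. They are CDHR1, the most abundant member in untreated cells and one that fell, and 3 delta-2 protocadherins. Of these 3, PCDH8 fell, and PCDH17 and PCDH19 rose from near 0. No member with a small change is shown. Each line gives 240 bases of RefSeq sequence (GRCh38.p14), 5′ to 3′ on the strand of the gene, from 250 to 11 bases before the annotated start. Capitals mark an E-box of any core (CANNTG) or a TATAAA.
CDHR1, chr10:84194287-84194526, plus strand: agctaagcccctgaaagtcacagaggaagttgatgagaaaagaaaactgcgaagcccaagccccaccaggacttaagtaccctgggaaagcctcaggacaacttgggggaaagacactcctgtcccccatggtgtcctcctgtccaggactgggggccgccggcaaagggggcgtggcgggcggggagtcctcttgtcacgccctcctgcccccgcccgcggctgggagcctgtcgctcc
PCDH8, chr13:52848651-52848890, minus strand: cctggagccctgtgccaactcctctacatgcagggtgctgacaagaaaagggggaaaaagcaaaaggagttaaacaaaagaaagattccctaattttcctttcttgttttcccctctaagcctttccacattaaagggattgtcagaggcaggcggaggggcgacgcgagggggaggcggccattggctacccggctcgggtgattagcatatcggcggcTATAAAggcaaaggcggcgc
PCDH17, chr13:57631494-57631733, plus strand: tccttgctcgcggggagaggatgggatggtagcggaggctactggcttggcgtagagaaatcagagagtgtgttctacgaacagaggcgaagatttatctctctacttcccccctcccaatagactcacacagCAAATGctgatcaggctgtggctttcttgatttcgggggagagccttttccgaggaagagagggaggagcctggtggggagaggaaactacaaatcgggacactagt
PCDH19, chrX:100410284-100410523, minus strand: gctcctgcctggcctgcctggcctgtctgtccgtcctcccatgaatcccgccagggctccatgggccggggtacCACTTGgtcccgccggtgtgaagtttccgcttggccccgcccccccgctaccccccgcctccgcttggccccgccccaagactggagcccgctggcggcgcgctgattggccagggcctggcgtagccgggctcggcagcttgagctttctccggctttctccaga
PCDH8 has a TATAAA close to its start, PCDH17 and PCDH19 each have an E-box of another core, and the printed stretch of CDHR1 has none of these letters. The RefSeq start of CDHR1 lies 98 bases and that of PCDH17 66 bases before the GENCODE 29 start. RefSeq start windows (250 bases before to 50 after the start) were at hand for 40 of the 59 members, 57 windows in all. Of the 35 tested members, 24 had a window, so the windows do not cover all members that changed. The canonical MYC E-box CACGTG, which reads the same on both strands, was in 0 of these 57 windows and in 7.26% of all 35116 windows. An E-box of any core (CANNTG, which includes CACGTG) was in 63.2% of the member windows and 68.7% of all windows. TATAAA on the strand of the gene was in the windows of CDH2, CDH9 and PCDH8 (7.33% of all windows), and TAATCC or its reverse complement GGATTA, the core bound by OTX2 and CRX, was in those of CDH10, CDHR4 and PCDH15 (6.36% of all) and not in that of CDHR1. These are matches of letters in a short window and say nothing of binding.

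Among the classical cadherins, CDH2 rose while the other abundant members, CDH24 and CDH11, fell. CDH2, the N-cadherin of neural tissue (18:27950966-28177446, minus strand, GRCh38), was measured at 53.3, 52.4, 45.2 and 52.7 CPM in the 4 OMO libraries and at 373, 369, 353 and 359 CPM in OMO+DOX. Every treated library was far above every untreated one, and CDH2 rose 7.15-fold (log2 fold change 2.84, SE 0.06, adjusted p 4.18e-12). CDH11 (OB-cadherin), which is known from mesenchymal cells and also from neural crest and brain, fell from 136 ± 7.90 to 62.0 ± 1.73 CPM (SD, n = 4), a log2 fold change of -1.13. CDH24, a type II cadherin that binds catenins, fell from 211 ± 4.76 to 121 ± 8.71 CPM, a log2 fold change of -0.80. Per kb of exon, which allows levels of different genes to be compared, CDH2 made up 12.4% ± 0.855 of the summed CPM per kb of all classical cadherins in OMO and 63.4% ± 1.32 in OMO+DOX, while CDH24 went from 64.6% ± 1.90 to 26.5% ± 1.61 and CDH11 from 21.0% ± 1.08 to 6.84% ± 0.188. The summed level of the classical cadherins was 92.0 ± 0.786 CPM per kb in OMO and 129 ± 2.89 in OMO+DOX. Beside CDH2 and CDH11, the summed CPM of 10 mesenchymal markers was 36.6 to 38.5 in OMO and 57.0 to 70.9 in OMO+DOX, with POSTN at the floor in all libraries. The markers did not move together: PDGFRB (13.5 against 40.4 CPM) and COL3A1 (0.0051 against 0.335) were higher with DOX, DCN (0.601 against 0.0117), COL1A2 (0.223 against 0.011) and LUM (0.0965 against 0.0173) were lower, and COL1A1 was at 22.1 against 23.4 CPM. Their part in the result was not tested.

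The type II cadherins, which in the brain mark nuclei, layers and circuits in combination, held rises from near the floor and also falls. CDH6, known from the hindbrain, kidney and neural crest, was at 0.143 to 0.203 CPM in the OMO libraries and at 11.2 to 11.8 CPM in OMO+DOX (log2 fold change 5.97, SE 0.11, adjusted p 1.41e-12). CDH8, a cadherin of synapses, was at 0.531, 0.503, 0.447 and 0.471 CPM in OMO and at 9.50, 8.97, 9.09 and 9.03 CPM in OMO+DOX (log2 fold change 4.22, SE 0.10). Both therefore went from under 1 CPM in every untreated library to between 8.97 and 11.8 CPM in every treated one. CDH10 rose from 0.197 ± 0.0569 to 1.46 ± 0.188 CPM (log2 fold change 2.88, SE 0.20). In the other direction CDH22, a brain cadherin, fell from 2.09 to 2.99 CPM in OMO to 0.132 to 0.235 CPM in OMO+DOX (log2 fold change -3.86, SE 0.21). The smaller calls were CDH7 (log2 fold change 0.43), CDH12 (0.34, adjusted p 0.0416) and, of type I, the muscle and cerebellar cadherin CDH15 (0.62). CDH12 kept its call only without OMO replicate 2 among the fits that left out 1 library (adjusted p 0.0528 to 0.13 in the other 7). CDH19, a cadherin of the Schwann cell lineage, was at 2.86 ± 0.442 and 2.70 ± 0.558 CPM with overlapping groups (log2 fold change -0.09, SE 0.16, adjusted p 0.606).

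CDH5 (VE-cadherin) and CDH1 (E-cadherin) are the cadherins of endothelial and epithelial junctions, and neither had a single count in any OMO library. CDH5 had 99, 61, 106 and 85 counts in the OMO+DOX libraries, or 1.95, 1.52, 2.07 and 1.87 CPM, at least 27.6-fold higher than the level of 3 counts in each untreated library (adjusted p 8.5e-08). Such bounds and the intervals given for small counts cover counting error only. CDH1 had 31, 22, 30 and 24 counts (0.528 to 0.611 CPM), at least 8.46-fold higher by the same bound. It was below the filter, and the fit without a filter gave an adjusted p of 1.24e-10. Both genes were detected in all treated libraries but at a low level, and CDH1 at 0.114 CPM per kb was far below CDH2 at 81.8 CPM per kb. Beside CDH5, the endothelial markers PECAM1, TEK and ERG were at the floor in all 8 libraries and the summed CPM of 12 endothelial markers was lower with DOX, 17.2 to 19.4 against 28.7 to 31.6, although KDR rose from 0.348 to 2.74 CPM. Beside CDH1, the epithelial markers KRT19 and GRHL2 were at the floor, EPCAM was at 0.0973 against 0.124 CPM, and the sum over 12 epithelial markers was 18.0 to 21.3 CPM in OMO and 7.57 to 8.90 CPM in OMO+DOX, set mainly by KRT8 (15.8 against 3.72 CPM).

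**Figure D2:**
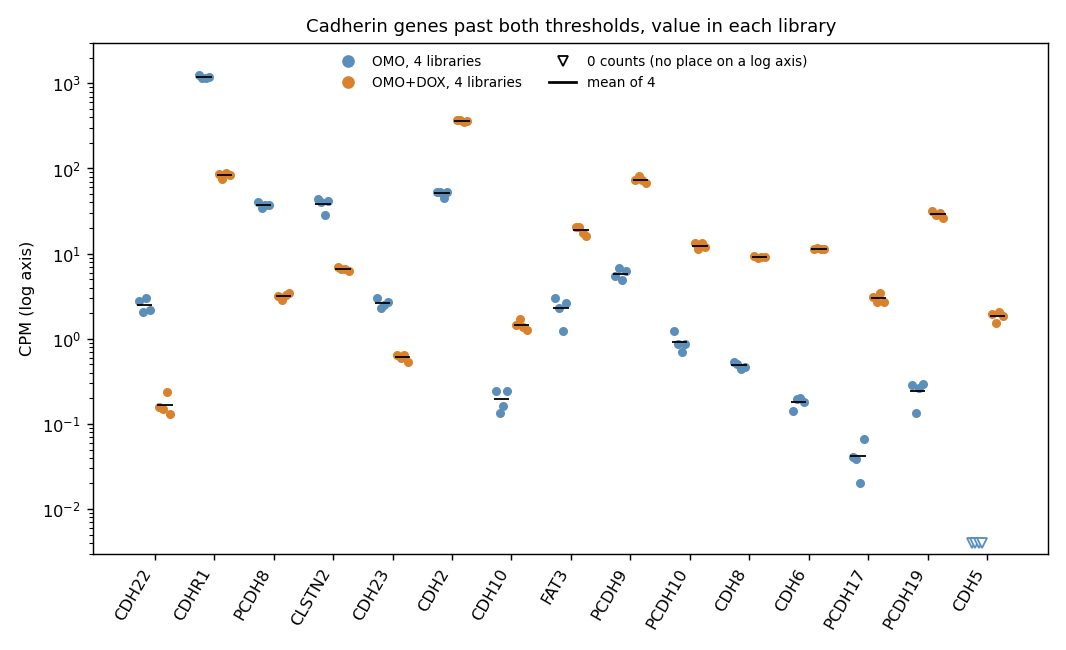
CPM of the 15 differentially expressed members in each library (log axis), ordered by log2 fold change. Blue points are OMO, orange points OMO+DOX, bars the mean of 4, and open triangles the 4 OMO libraries with 0 counts of CDH5; in no gene do the 2 groups overlap, and CDHR1 and CDH2 are the only ones whose mean exceeds 100 CPM in either group.

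The most abundant member of untreated cells was a photoreceptor gene. CDHR1 (10:84194635-84219621, plus strand), a cadherin-related protein at the base of the outer segment discs of rods and cones, was at 1250, 1140, 1140 and 1180 CPM in OMO and at 85.8, 74.8, 87.7 and 84.1 CPM in OMO+DOX. It fell 14.1-fold (log2 fold change -3.82, SE 0.06, adjusted p 6.28e-13). Beside it, the photoreceptor transcription factor CRX went from 126 ± 6.23 to 21.0 ± 0.719 CPM, and NRL from 28.7 to 2.44 CPM. CDHR3, a cadherin of ciliated airway cells, fell less, from 9.18 ± 0.491 to 4.95 ± 0.198 CPM (log2 fold change -0.89). CDH23, which with PCDH15 forms the tip link of hair cell stereocilia and is also found in photoreceptors, was at 2.98, 2.28, 2.50 and 2.73 CPM in OMO and 0.647, 0.598, 0.645 and 0.528 CPM in OMO+DOX (log2 fold change -2.11, SE 0.14), and 19.9% of its exon bases lie opposite C10orf105, which was itself at 0.015 and 0.0359 CPM. PCDH15 was close to absent, with 0 counts in every OMO library and 4, 1, 6 and 6 counts in OMO+DOX.

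Set against all members per kb of exon, these shifts changed which cadherins made up most of the family's RNA. CDHR1 held 41.3% ± 0.666 of the summed CPM per kb of the 59 members in OMO and 4.28% ± 0.248 in OMO+DOX, while CDH2 went from 2.94% ± 0.156 to 30.8% ± 0.876. The share of the calsyntenin CLSTN1 was 21.7% ± 0.369 and 23.0% ± 0.696. The order from the top was CDHR1 (161 CPM per kb), CLSTN1 (84.2), CDH24 (59.4), CDH11 (19.3), DSG2 (16.5) and CDH2 (11.4) in OMO. In OMO+DOX it was CDH2 (81.8), CLSTN1 (61.1), CDH24 (34.1), DSG2 (17.0), CDHR1 (11.3), CDH11 (8.81) and FAT1 (8.69). The libraries of CDH11 and DSG2 overlapped in OMO (17.7 to 20.2 and 13.4 to 18.0 CPM per kb), and those of CDH11 and FAT1 in OMO+DOX (8.49 to 9.03 and 8.2 to 9.29). The sum over all members was 389 ± 14.0 CPM per kb in OMO and 265 ± 7.08 in OMO+DOX, and without CDHR1 it was 228 ± 7.21 and 254 ± 6.63. Lengths were merged exons. With the length of the longest principal transcript instead, chosen after seeing the data, the first 6 of OMO kept this order, but PCDH9 moved ahead of CDHR1 in OMO+DOX at 12.9 CPM per kb, because its merged exons are 30726 bases long.

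**Figure D3:**
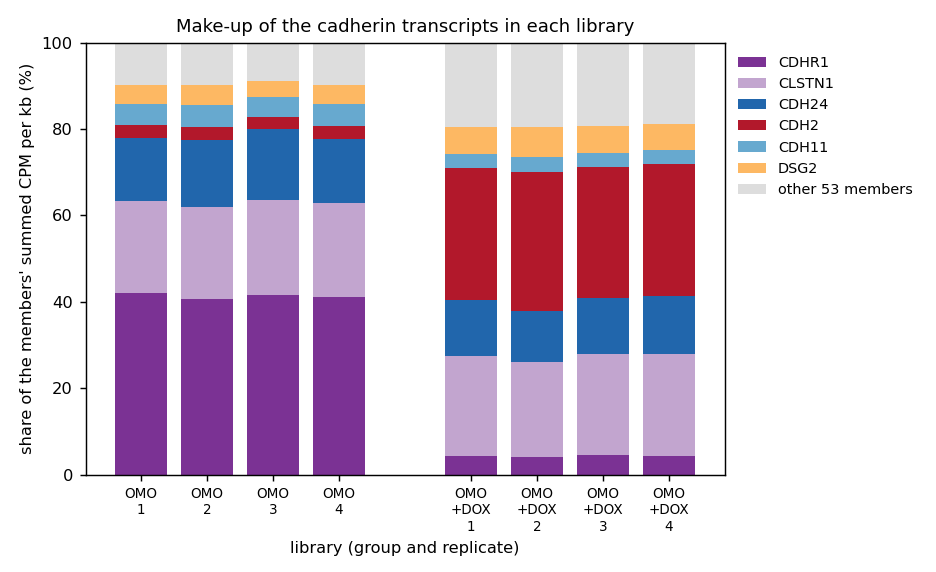
Share of the 59 members' summed CPM per kb (y axis, percent) taken by CDHR1, CLSTN1, CDH24, CDH2, CDH11, DSG2 and the other 53 members in each library. The purple CDHR1 segment goes from 40.6% to 42.1% in the OMO libraries to 3.96% to 4.56% in OMO+DOX, and the red CDH2 segment from 2.72% to 3.08% to 30.3% to 32.1%.

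The non-clustered protocadherins are brain genes that take part in cell sorting, axon growth and synapse turnover, and those tested moved in both directions. Of the delta-2 family, all 5 members were tested, and 3 rose while 2 fell. PCDH19 (X:100291644-100410273, minus strand), which is known from an X-linked epilepsy, was at 0.286, 0.135, 0.264 and 0.291 CPM in OMO and at 31.8, 28.6, 30.4 and 26.5 CPM in OMO+DOX. It rose 120-fold (log2 fold change 6.91, SE 0.13, adjusted p 2e-12) and reached 29.3 ± 2.31 CPM (SD, n = 4). PCDH17 (13:57631810-57729311, plus strand) had 2, 2, 1 and 3 counts in OMO and 159, 109, 175 and 124 in OMO+DOX, a ratio of summed counts, scaled to library size, of 73.5 (exact 95% counting interval 37.1 to 171). PCDH10 rose from 0.915 ± 0.223 to 12.4 ± 1.08 CPM (log2 fold change 3.76, SE 0.14).

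PCDH8 (13:52842889-52848641, minus strand), whose mouse counterpart arcadlin is induced by neuronal activity, was at 39.9, 34.4, 37.1 and 36.8 CPM in OMO and at 3.17, 2.84, 3.30 and 3.46 CPM in OMO+DOX. It fell 11.6-fold (log2 fold change -3.53, SE 0.07, adjusted p 3.25e-12). PCDH18 fell from 17.3 ± 2.08 to 7.14 ± 0.602 CPM (log2 fold change -1.27). The delta-2 family as a whole held 2.66% ± 0.011 of the members' summed CPM per kb in OMO and 2.45% ± 0.135 in OMO+DOX, while its largest contributor changed from PCDH8 (1.87% of the members' sum in OMO) to PCDH19 (1.13% in OMO+DOX). Of the delta-1 family, PCDH9 was the only tested member, at 5.41, 6.70, 4.92 and 6.23 CPM in OMO and 73.0, 80.6, 73.5 and 67.9 CPM in OMO+DOX (log2 fold change 3.66, SE 0.09, adjusted p 1.62e-11). PCDH7 of the same family stayed below the filter, with 3 to 10 counts in OMO and 34.6 to 59.8 in OMO+DOX (log2 fold change 2.92, SE 0.31, in the fit without a filter). PCDH12, known from endothelium and placenta, was at 2.03 ± 0.265 and 2.21 ± 0.246 CPM, with overlapping groups (adjusted p 0.376).

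Members that neighbour each other in the genome moved in different directions in several places. On chromosome 13, PCDH8 (log2 fold change -3.53) is followed after 4.78 Mb by PCDH17 (6.10), then by PCDH20 and then by PCDH9 (3.66). PCDH20 was listed at 0 in all 8 libraries. Of its exon bases, 95.8% are shared with the annotated gene AL592490.1 on the same strand, which was also at 0 CPM in both groups. On chromosome 4, PCDH10 (3.76) and PCDH18 (-1.27) lie 4.31 Mb apart. Chromosome 16 carries CDH8 (4.22), CDH11 (-1.13) and CDH5 in that order, with 2.91 and 1.24 Mb between them. On chromosome 5 the members CDH18, CDH12, CDH10, CDH9 and CDH6 follow each other, and of these CDH6, CDH10 and CDH12 rose, CDH18 went from 7 to 13 counts down to 0 to 2, and CDH9 was at 0 in all libraries. The desmosomal cadherins fill a stretch of chromosome 18 that begins 2.81 Mb from CDH2, and neither of their tested members passed the test.

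Neither of the tested desmosomal cadherins, which anchor intermediate filaments at cell contacts, passed the test. DSG2, the desmoglein of simple epithelia and heart, was at 111, 105, 83.1 and 109 CPM in OMO and at 106, 113, 101 and 101 CPM in OMO+DOX. These groups overlapped, and the difference was within the spread (log2 fold change 0.04, SE 0.08, adjusted p 0.664). DSC2 was at 23.4 ± 1.95 and 25.3 ± 1.41 CPM (log2 fold change 0.11, SE 0.07, adjusted p 0.157). The other 5 were below the filter. DSC3 had 3, 3, 7 and 4 counts in OMO and 20, 15, 19 and 16 in OMO+DOX (log2 fold change 2.03 without a filter), DSC1 2.54 to 5 and 7.36 to 15.8, and DSG1 0 and 1 to 8, while DSG3 and DSG4 had at most 1 count in any library.

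The giant cadherins of planar polarity and growth control mostly rose. FAT1 was at 57.2, 52.5, 36.1 and 55.5 CPM in OMO and at 137, 132, 123 and 121 CPM in OMO+DOX (log2 fold change 1.35, SE 0.12, adjusted p 8.35e-07). FAT3, a neuronal FAT cadherin, rose from 3.02, 2.30, 1.22 and 2.62 CPM to 20.6, 20.6, 17.5 and 16.3 CPM (log2 fold change 3.03, SE 0.19) and was the only member of this subfamily past both thresholds. FAT4 rose from 24.1 ± 5.22 to 48.2 ± 3.11 CPM, and its known ligand DCHS1 from 16.3 ± 1.26 to 43.1 ± 2.25 CPM (log2 fold changes 1.0 and 1.40). FAT2, a cadherin of cerebellar granule cells, fell from 5.27 ± 1.06 to 1.51 ± 0.368 CPM (log2 fold change -1.80, SE 0.19). For all 4 FAT genes the lowest untreated value was that of replicate 3, the library low in long genes. Over the fits that left out 1 library each, the log2 fold change of FAT1 lay between 1.22 and 1.41 and that of FAT3 between 2.82 and 3.19.

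The 3 CELSR genes, seven-pass cadherins at the core of planar polarity complexes, rose by nearly the same small amount, with log2 fold changes of 0.51, 0.48 and 0.50 for CELSR1, CELSR2 and CELSR3 (SE 0.06 to 0.07), and their libraries did not overlap between the groups. CELSR2 was the highest of them per kb (4.00 CPM per kb in OMO and 5.59 in OMO+DOX). The calsyntenins, which link kinesin to membrane cargo and organize synapses, split. CLSTN2 fell from 43.8, 40.1, 28.3 and 41.3 CPM to 6.94, 6.65, 6.55 and 6.19 CPM (log2 fold change -2.54, SE 0.13, adjusted p 4.7e-09), CLSTN1 fell from 440 ± 11.7 to 319 ± 15.8 CPM (-0.46), and CLSTN3 rose from 9.69 to 10.6 CPM in OMO to 22.5 to 25.4 CPM in OMO+DOX (1.29).

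Of the 24 members below the filter, CDH9 and PCDH20 were listed at 0 in all 8 libraries, and 3 more (CDH16, DSG3 and DSG4) never exceeded 3 counts. Besides CDH1, PCDH7, DSC1, DSC3, DSG1 and PCDH15, the groups did not overlap for CDH17 (0 against 2 to 5 counts), CDH3 (2 to 4 against 6 to 8, adjusted p 0.0893 without a filter), CDH4 (15 to 23 against 3 to 8) and CDH18. CDH18, a type II brain cadherin, had 7, 10, 13 and 10 counts in OMO and 2, 0, 0 and 0 in OMO+DOX, a ratio of 0.0519 (exact 95% counting interval 0.00607 to 0.20). CDH4 (R-cadherin) had a log2 fold change of -1.78 in the fit without a filter. The exact permutation test over libraries gives 0.0286 for each gene whose groups do not overlap, the smallest p that 4 against 4 allows. How many of all genes below the filter have groups that do not overlap was not counted, so no excess among these members can be read from the list. Counts of both groups overlapped for CDH20, CDH13, CDH26, CDHR2, CDHR4, CDHR5, PCDH1, PCDH11X and DCHS2, with at most 25 counts in any library, and none of these passed the test in the fit without a filter (adjusted p 0.066 for CDH13 and higher for the others).

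**Figure D4:**
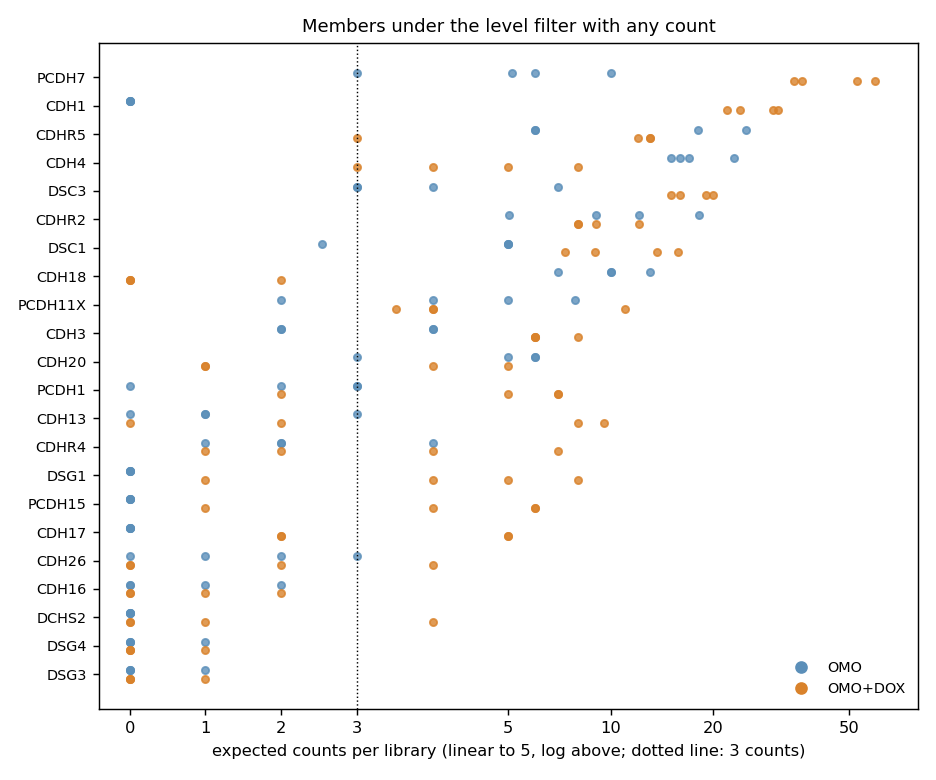
Expected counts per library (x axis, linear to 5 and logarithmic above) of the 22 members below the filter that had any count, OMO in blue and OMO+DOX in orange, with a dotted line at 3 counts. CDH1 lies at 0 in all OMO libraries and at 22 to 31 counts in OMO+DOX, PCDH7 and DSC3 shift to the right, and CDH18 and CDH4 shift to the left.

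The genes that work with cadherins had smaller changes by their median. The 5 lists held 65 genes, of which 52 were tested, 26 rose, 19 fell and 7 did not pass the test, and 3 were differentially expressed with higher and 1 with lower levels. As shares of the tested partners, 50% rose and 36.5% fell, against 38.5% and 38.1% of all genes tested, and 5.77% and 1.92% were differentially expressed with higher and lower levels, against 4.38% and 2.75%. Their median absolute log2 fold change was 0.42, close to the 0.43 of all genes tested. Among 12 tested catenins and plaque proteins, 9 rose (75.0%) and 2 fell (16.7%), to be read against the same shares of all genes. CTNNB1 (beta-catenin), which links classical cadherins to alpha-catenin and also carries WNT signals, rose from 242 ± 6.12 to 587 ± 20.8 CPM (log2 fold change 1.28, SE 0.04, adjusted p 2.14e-10). CTNNA2, the neuronal alpha-catenin, rose from 0.0417 ± 0.0193 to 1.18 ± 0.139 CPM (log2 fold change 4.76, SE 0.26), and CTNNA1 rose slightly (0.20). CTNND1 (p120-catenin), which keeps cadherins at the membrane, was at 218 ± 13.4 and 222 ± 3.99 CPM (log2 fold change 0.02, adjusted p 0.706). Of the desmosomal plaque, DSP (desmoplakin) rose (0.77) and JUP (plakoglobin) fell slightly (-0.17, adjusted p 0.0279) with overlapping groups. JUP lost that call without OMO replicate 4 (adjusted p 0.0565) or OMO+DOX replicate 2 (0.0617).

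Among the 7 tested transcription factors known to repress CDH1, 4 rose (57.1%) and 2 fell (28.6%), against 38.5% and 38.1% of all genes tested. The lists of this paragraph are short, and no test was run over them. The largest change was that of TCF4, named with TCF3 after their values were seen, which rose from 61.8 ± 8.87 to 133 ± 7.15 CPM (log2 fold change 1.11, SE 0.09, adjusted p 5.37e-07), while TCF3 fell (-0.42). SNAI1 fell from 13.4 ± 1.25 to 8.93 ± 0.738 CPM (log2 fold change -0.58), while SNAI2 (0.60), ZEB1 (0.22, adjusted p 0.0399) and TWIST1 (0.26, adjusted p 0.0223) rose, and ZEB2 did not pass the test (0.13, adjusted p 0.186). The call of ZEB1 was lost without OMO replicate 2 (adjusted p 0.0512), OMO+DOX replicate 1 (0.0872) or OMO+DOX replicate 2 (0.111), and that of TWIST1 without OMO replicate 1 (0.0772), OMO+DOX replicate 1 (0.0516) or OMO+DOX replicate 4 (0.0603). Of 9 genes that process cadherins, 6 rose (66.7%) and 3 fell (33.3%), against 38.5% and 38.1% of all genes tested. ADAM10, the sheddase of CDH1, CDH2 and several protocadherins, rose from 106 ± 9.82 to 193 ± 9.04 CPM (log2 fold change 0.86), and the proprotein convertase PCSK5 rose from 1.94 ± 0.190 to 22.8 ± 0.569 CPM (3.55, SE 0.07). Of the 15 planar polarity and Fat-Dachsous partners, 9 fell (60%, against 38.1% of all genes), 4 did not pass the test and 2 rose, with a median log2 fold change of -0.24 over the list, and those that rose were VANGL2 (0.63) and PRICKLE3 (1.14, named after its value was seen). Among 9 tested Usher and microvillus link partners, 5 rose (55.6%) and 3 fell (33.3%), against 38.5% and 38.1% of all genes tested. MYO7A, the myosin at the tip link of CDH23 and PCDH15, rose (1.78), WHRN (whirlin) rose (2.64), and the hair cell channel gene TMC1 fell (-2.31), while USH1C was at the floor.

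**Figure D5:**
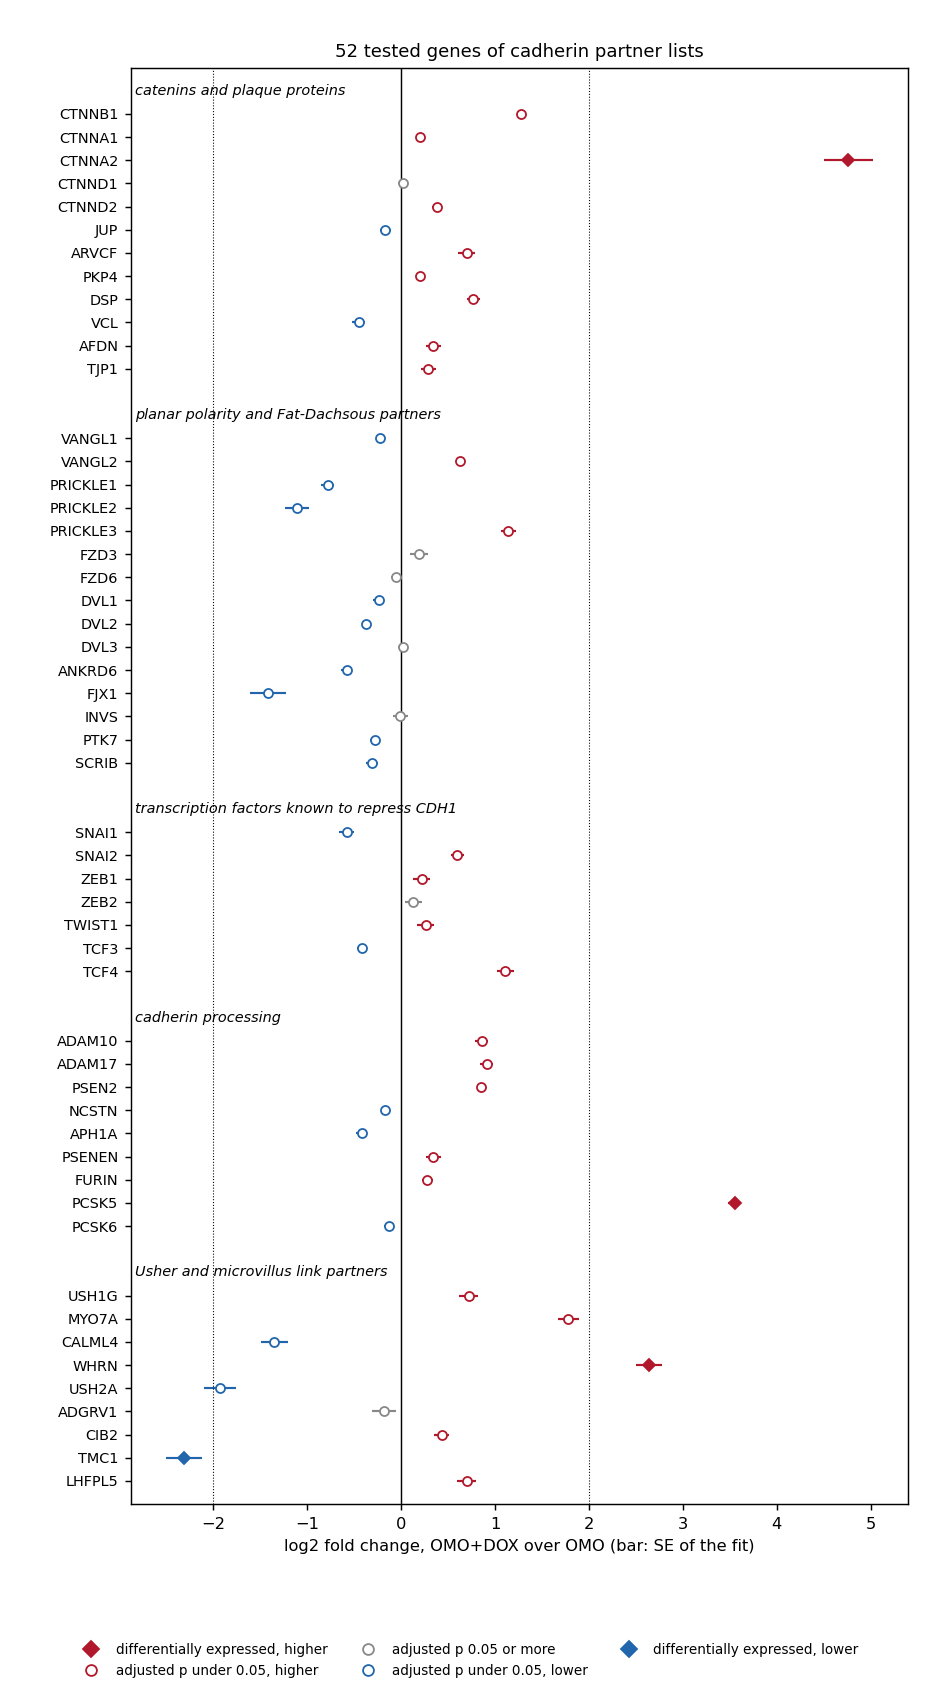
Log2 fold change of the 52 tested partner genes (x axis, OMO+DOX over OMO, with the SE derived from the F statistic) in 5 lists. Most points lie between -1 and 1, and the filled diamonds mark CTNNA2, PCSK5 and WHRN as higher and TMC1 as lower past both thresholds.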

How the data were processed

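Poly(A)+ RNA of 4 OMO and 4 OMO+DOX replicates of D283-OMO cells (72 h of doxycycline) was prepared with a strand-specific kit and sequenced. Per the labels and the study's methods, the authors trimmed reads with Trim Galore, aligned them to GRCh38 with STAR and GENCODE release 32, and deposited RSEM expected counts (estimated counts) per gene; the tool versions and RSEM's strand setting are not given in the sources used here. Reads shared by genes are divided by RSEM: 17 members had counts that were not whole (tolerance 0.005), and 5 of them (CDH11, CDHR2, DSG2, FAT2 and DCHS1) in all 8 libraries. Symbols, positions and exon lengths were taken from GENCODE 29 (58561 of 60668 identifiers) and start sequences from RefSeq.

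Counts were rounded and fitted with edgeR 4.0.16 in R 4.3.3 (quasi-likelihood test, TMM scaling, more than 1 CPM in at least 4 libraries, Benjamini-Hochberg adjustment over 15222 genes). Printed CPM are TMM-scaled, while the filter used CPM of the plain library totals. Errors are SD over 4 libraries, and the common biological coefficient of variation was 0.0745. Fits were tested on simulated counts with known changes. The edgeR p-values weigh each difference against variation between these 4 replicates of each group, with each gene's dispersion drawn toward that of other genes. Small counts were compared by the exact Poisson interval of their ratio (95%) and groups by the two-sided exact permutation test. Alternatives were DESeq2 1.42.0, other scalings, tests and filters, a replicate block, and leaving out each library.

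Members and lists were chosen with earlier results of these data known. Text names every differentially expressed member, in each subfamily the member highest per kb and the one with the largest change, some well-known members (CDH1, CDH2, CDH5, CDH11, CDHR1, CDH23 and PCDH15), untested members with over 3 counts, and a fixed set of partners; further members are named to complete a subfamily. A gene of the partner lists is not reported here.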

Additional observations from a re-analysis of the deposited data

Results flagged for a closer look

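In 4 of the 68 groups of 4 libraries looked at among the tested members, 1 library lay far from the other 3 by Dixon's ratio, and chance marks about 1 in 20. CDH2 in OMO replicate 3 was at 45.2 CPM, below the 52.4 to 53.3 CPM of the other untreated libraries, while the OMO+DOX libraries were at 353 to 373 CPM. FAT4 in OMO replicate 3 was at 16.3 CPM against 25.9 to 27.5 CPM, and CELSR1 in the same library at 19.3 CPM against 22.1 to 22.5 CPM. This is the library in which all 14 tested members with over 10 kb of exon were low, and CELSR1 and FAT4 are among those 14; the part of RNA quality or library preparation was not tested. CDH15 in OMO+DOX replicate 1 was at 1.36 CPM against 0.972 to 0.997 CPM in the other treated libraries, and its log2 fold change ranged from 0.49 to 0.71 over the fits that left out 1 library each.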

How the results depend on the processing

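The directions of the members were kept under nearly all alternatives: of 550 values (members by settings) 535 kept direction and side of the adjusted p threshold of 0.05, and of 269 for partners 255 did. These numbers do not track the log2 fold change threshold of 2. The filter changed the counts most. When over 4 libraries had to exceed 1 CPM, 25 members were tested and 12 rose, and the share of all genes that rose was not counted. Of the 25, 4 (16%) were differentially expressed with higher and 3 (12%) with lower levels, against 2.19% and 1.74% of 14301 genes. The partners had 1 higher and 0 lower, to be read against the same shares. Fewer genes are tested under that filter by construction. CDH12 lost its call in 12 alternatives (log2 fold change 0.26 to 0.37). Leaving out 1 library at a time, the members that rose were 19 to 20 and those that fell 11, with 10 and 5 differentially expressed, and the partners past both thresholds with lower levels were 1 to 2, the second call coming without OMO replicate 3. Values near 0 changed sign: CDH19 (0.03 with library size only), DSG2 (-0.05 without OMO replicate 3, up to 0.08 over the fits that left out 1 library) and CTNND1 (-0.01 without a filter, -0.02 without OMO replicate 3, up to 0.04 over such fits). Scaling by library size only moved the median of all genes to 0.14 from 0.01, and with it DSC2 (0.23), CTNND1 (0.15, adjusted p 0.0299) and ZEB2 (0.26, adjusted p 0.0287) passed the test and JUP did not. CDH23 (-1.98) was then no longer past both thresholds, so that 4 members were differentially expressed with lower levels. The cause was not tested. With the replicate number as a block, the same numbers of members were differentially expressed (10 higher, 5 lower) and CDH12 had a log2 fold change of 0.35 with adjusted p 0.071. The numbers were not taken to pair the libraries, since the labels do not say that they do and the correlation of same-numbered deviations was 0.157, 0.144, 0.241 and -0.176, and not every library correlated best with its own number.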
